A study of Rattus norvegicus with 30 samples.

Results

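The presynaptic vesicle release genes are a list of 33 genes chosen by symbol, and all 33 had a row in the deposited count table of 17455 genes. All 33 also passed the filter on low counts, among 12547 genes tested. They were described by step of the vesicle cycle: 7 SNARE and SNARE recycling genes, 7 calcium sensors and fusion clamps, 8 vesicle genes, 8 active zone genes and 3 endocytosis genes. The measurements came from polyA RNA sequencing of snap-frozen rat dorsal hippocampus, with 30 libraries in 8 groups set by sex, genotype and diet. The genotypes were wildtype and the TgF344-AD line, called alzheimer in the labels, and the diets were chow and western. TgF344-AD rats carry mutant human APP under the mouse prion promoter, so the transgene is not driven by the rat gene's own promoter. Each of the 4 male groups held 4 libraries. Female wildtype and female alzheimer rats had 4 libraries each on chow and 3 each on western diet. The labels gave no age, and put replicates 1 to 14 in cohort 1 and replicates 15 to 30 in cohort 2. They do not say that each library is a separate animal, so each p-value reflects spread among libraries, which may be technical.

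Neurotransmitter is released when a synaptic vesicle fuses with the presynaptic membrane. Vesicles are held in clusters by synapsins, docked and primed at the active zone by scaffold proteins, and fused by SNARE proteins when calcium binds to synaptotagmins. Nsf and the SNAP proteins then take the SNARE complexes apart, and dynamin, amphiphysin and synaptojanin act in the recovery of vesicle membrane. In the hippocampus this machinery serves both excitatory and inhibitory terminals. Most of its messenger RNA lies in the cell bodies of the neurons that send the axons, which can sit outside the dissected tissue.

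Libraries held 13.9 to 31.4 M counts. The label check on App, whose reads can include the human transgene, gave 3137 to 3398 CPM (counts scaled to library size) in the 15 alzheimer libraries and 1548 to 1782 CPM in the 15 wildtype ones, without overlap. Neuronal markers were present in every library: the 12 pan-neuronal genes summed to 5819 to 6449 CPM in alzheimer and 5863 to 6525 CPM in wildtype. Hippocampal fields were represented: Wfs1 of CA1 averaged 798 CPM, Grik4 of CA3 129 CPM and Prox1 of the dentate gyrus 60.1 CPM. Other markers of these fields ranged widely. In CA1 they ran from Fibcd1 at 0.535 to Mpped1 at 349 CPM, and in CA3 from Iyd at 0.0739 to Bok at 126 CPM. In the dentate gyrus they ran from Tdo2 at 0.0368 to C1ql2 at 227 CPM. Choroid plexus markers, from tissue next to the hippocampus, were low but uneven, with 10 genes summing to 4.97 to 67.0 CPM over the libraries. CPM is not corrected for transcript length, so levels below are compared between libraries and not between genes.

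Start regions are shown for the members called on western diet, Rims1, Erc2 and Synj1, and for Syn1, the called member whose start region held the cAMP response element. Each runs from 250 bases before to 50 bases after the RefSeq start on build GRCr8, at chr9:32692723-32693022 on the minus strand for Rims1, chr16:2819262-2819561 on the plus strand for Erc2, chr11:43755477-43755776 on the minus strand for Synj1 and chrX:3725495-3725794 on the plus strand for Syn1. Capitals mark the GC box GGGCGG and the cAMP response element TGACGTCA, on either strand (CCGCCC is the GC box read from the other strand).
Rims1: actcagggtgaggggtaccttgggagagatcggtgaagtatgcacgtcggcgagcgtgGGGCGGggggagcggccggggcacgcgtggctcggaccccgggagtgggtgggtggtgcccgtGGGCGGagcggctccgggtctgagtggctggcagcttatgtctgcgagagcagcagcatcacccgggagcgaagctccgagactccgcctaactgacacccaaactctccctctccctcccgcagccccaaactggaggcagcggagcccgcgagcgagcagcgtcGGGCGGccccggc
Erc2: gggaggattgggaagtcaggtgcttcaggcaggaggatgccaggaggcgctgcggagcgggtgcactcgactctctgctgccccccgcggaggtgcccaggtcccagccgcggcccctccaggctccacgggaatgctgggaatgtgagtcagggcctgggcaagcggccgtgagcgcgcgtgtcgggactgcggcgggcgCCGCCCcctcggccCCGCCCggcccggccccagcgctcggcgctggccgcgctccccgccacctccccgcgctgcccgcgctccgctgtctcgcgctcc
Synj1: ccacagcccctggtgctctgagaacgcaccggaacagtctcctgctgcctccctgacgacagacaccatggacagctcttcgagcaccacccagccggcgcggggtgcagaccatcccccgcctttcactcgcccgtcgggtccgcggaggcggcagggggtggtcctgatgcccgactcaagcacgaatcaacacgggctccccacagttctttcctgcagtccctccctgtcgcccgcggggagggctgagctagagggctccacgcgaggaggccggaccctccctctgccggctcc
Syn1: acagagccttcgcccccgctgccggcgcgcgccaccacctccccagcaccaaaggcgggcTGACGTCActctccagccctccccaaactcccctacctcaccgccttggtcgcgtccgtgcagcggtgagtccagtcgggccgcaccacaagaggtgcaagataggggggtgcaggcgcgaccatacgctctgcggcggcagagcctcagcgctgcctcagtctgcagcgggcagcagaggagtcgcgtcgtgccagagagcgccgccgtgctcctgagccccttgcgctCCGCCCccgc
RefSeq start regions were at hand for 27 of the 33 members, in 28 entries because Unc13b had 2. The GC box was in 22 of the 28 (78.6%), against 60.9% of the 10380 start regions of tested genes and 33.1% of all 33469 in the table. It was in 6 of the 9 entries of members called for genotype and 16 of the 19 others. TGACGTCA was in Napa, Vamp1 and Syn1 (10.7%), each of which also held the GC box, against 3.06% of tested genes and 1.83% of all. The TATA box TATAAA, searched on both strands, was in 0 of the 28, against 6.96% and 14.2%. The median GC content was 67.0%, with a range of 53.3% to 76.7%, against a median of 60.7% for tested genes. These are matches of letters in a window and say nothing of binding.

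Between alzheimer and wildtype, 11 of the 33 members passed the test, all of them higher in alzheimer. The background was 8.03% of all genes called, 4.14% higher and 3.89% lower, against 33.3% of the members. The members were chosen with earlier results of these data known, which limits this contrast. The sizes were small: the called members lay between 0.069 and 0.24 on the log2 scale. For each of the 33 members the libraries of the genotypes overlapped, as they did for all but 0.159% of the genes tested. The median over all 33 was 0.069, against 0.0020 over all genes tested, and 27 members were positive and 6 negative. Calls are edgeR quasi-likelihood F tests with Benjamini-Hochberg adjusted p under 0.05 over all genes, and ± after a log2 fold change is its standard error. In bulk tissue, fewer cells of a type and less RNA per cell cannot be told apart, in either direction.

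**Figure D1:**
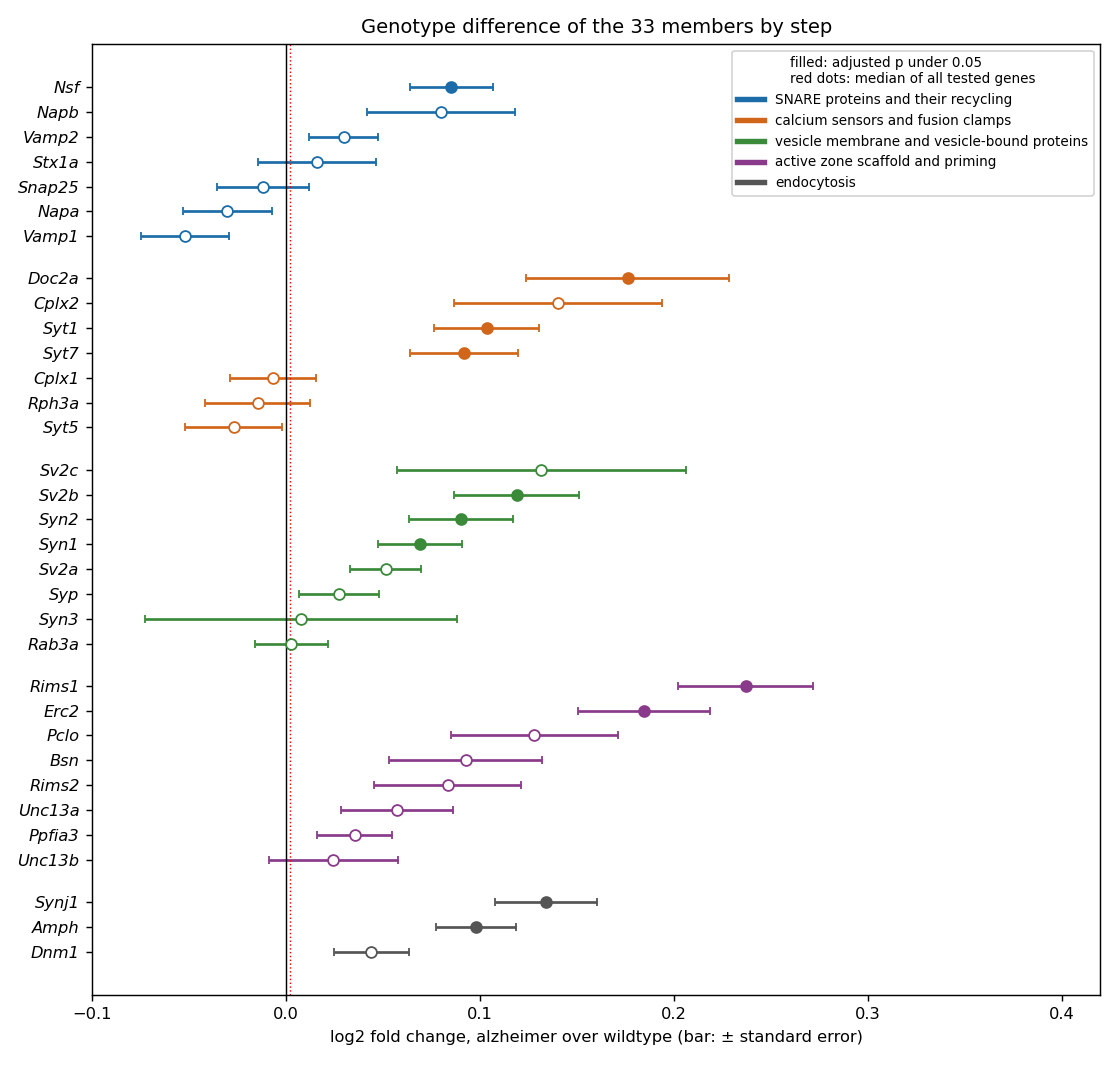
Log2 fold change of alzheimer over wildtype for each of the 33 members, grouped by step, with bars of ± 1 standard error. Filled points are the 11 called members, all to the right of 0, and the red dotted line is the median of all tested genes at 0.0020.

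Among the active zone genes 2 of 8 rose, and all 8 were positive. Rims1 codes for RIM1, the scaffold that ties Rab3, calcium channels and Munc13 together at release sites. Its lowest, median and highest libraries were 211, 262 and 284 CPM in alzheimer and 188, 223 and 252 CPM in wildtype. The ranges overlapped, and 9 alzheimer libraries lay above every wildtype library. Rims1 rose by 0.24 ± 0.035 (adjusted p = 2.00e-05) and 13 of 15 alzheimer libraries exceeded the mean of the matching wildtype libraries. Erc2, which codes for the scaffold protein CAST, ran from 68.4 through 77.7 to 82.5 CPM in alzheimer and from 59.7 through 67.4 to 79.5 CPM in wildtype. It rose by 0.18 ± 0.034 (adjusted p = 0.000582), and 14 of 15 alzheimer libraries exceeded their matched mean. The high wildtype library was male chow replicate 7.

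Other active zone members did not pass. Pclo and Bsn, the giant scaffolds piccolo and bassoon, stood at 288 ± 24.8 against 263 ± 29.1 CPM (SD, n = 15 each) and at 598 ± 61.7 against 561 ± 63.3 CPM. Their log2 fold changes were 0.13 ± 0.043 (adjusted p = 0.0613) and 0.093 ± 0.040 (adjusted p = 0.150). The call of Pclo depended on the fit: it passed in cohort 2 alone (0.20 ± 0.037, adjusted p = 0.00497), with no filter, with limma-voom, and without replicate 1, 7, 8 or 13. Rims2, a paralog of Rims1, was at 0.083 ± 0.038 (adjusted p = 0.185). Unc13a and Unc13b, the Munc13 priming factors, were at 0.057 ± 0.029 and 0.024 ± 0.033, and the liprin gene Ppfia3 was at 0.035 ± 0.019. As a ratio of raw counts within a library, Rims2 to Rims1 was 0.270 ± 0.0130 in alzheimer and 0.300 ± 0.0194 in wildtype (SD, n = 15 each), a description with no test.

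Among the endocytosis genes 2 of 3 rose. Synj1 codes for synaptojanin 1, the lipid phosphatase that helps to strip the clathrin coat. Its lowest, median and highest libraries were 410, 428 and 476 CPM in alzheimer and 355, 394 and 478 CPM in wildtype. The highest library of all was again male wildtype chow replicate 7, and the next wildtype library lay below the lowest alzheimer one. Synj1 rose by 0.13 ± 0.026 (adjusted p = 0.00126). Amph, for amphiphysin, which brings dynamin to coated pits, ran from 142 through 150 to 163 CPM in alzheimer and from 132 through 140 to 154 CPM in wildtype. It rose by 0.098 ± 0.021 (adjusted p = 0.00237) with overlapping ranges. Dnm1, the dynamin that cuts the vesicle neck, was at 2070 ± 71.3 against 2010 ± 62.5 CPM, 0.044 ± 0.019 (adjusted p = 0.167).

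Among the calcium sensors and fusion clamps 3 of 7 rose. Syt1, the calcium sensor of fast synchronous release, had lowest, median and highest libraries of 634, 667 and 745 CPM in alzheimer and 576, 622 and 751 CPM in wildtype. Of the 15 wildtype libraries 4 reached into the alzheimer range or above it, and male chow replicate 7 was the highest. Syt1 rose by 0.10 ± 0.027 (adjusted p = 0.0136), with 14 of 15 alzheimer libraries above their matched mean. Syt7, a slow sensor for asynchronous release and facilitation, stood at 199 ± 12.3 against 188 ± 9.77 CPM and rose by 0.092 ± 0.028 (adjusted p = 0.0348). Doc2a, a high-affinity sensor of spontaneous and asynchronous release, stood at 11.6 ± 1.41 against 10.2 ± 0.724 CPM and rose by 0.18 ± 0.052 (adjusted p = 0.0316). The calls of Syt7 and Doc2a did not hold in several fits. Syt7 was lost without replicate 3, 5, 9, 10, 15, 18, 19, 22, 23, 25 or 29 (adjusted p from 0.0561 to 0.0968), with 2 surrogate variables (0.0744) and with library size as covariate (0.0705). Doc2a was lost without replicate 1, 4, 11, 13, 18, 19 or 22 (0.0507 to 0.0685) and with 2 surrogate variables (0.0635).

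Syt5, Rph3a and Cplx1 had small negative values. Syt5, a further synaptotagmin, was at −0.027 ± 0.025, the Rab3 effector Rph3a at −0.015 ± 0.027, and Cplx1, a complexin that binds assembled SNARE complexes, at −0.0067 ± 0.022. The other complexin, Cplx2, had a large value that was smaller without 1 library. For Cplx2, 13 of 15 alzheimer libraries exceeded their matched mean. Its lowest, median and highest libraries were 386, 421 and 469 CPM in alzheimer and 217, 402 and 433 CPM in wildtype. The 217 CPM were in female wildtype western replicate 12, and the next lowest of the 30 libraries was male wildtype chow replicate 29 at 330 CPM. In replicate 12 the ratio of Cplx2 to Cplx1 counts was 0.451, against 0.613 to 0.920 in the other libraries. Cplx2 did not pass over all libraries (0.14 ± 0.054, adjusted p = 0.106). Without replicate 12 it was at 0.074 ± 0.032 (adjusted p = 0.166), without replicate 17 at 0.18 ± 0.052 (adjusted p = 0.0348), and with no filter at 0.14 ± 0.042 (adjusted p = 0.0287).

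Among the vesicle genes 3 of 8 rose, and all 8 were positive. Sv2b, a vesicle glycoprotein of the SV2 family, ran from 443 through 481 to 569 CPM in alzheimer and from 402 through 447 to 531 CPM in wildtype. The ranges overlapped widely, and 10 of 15 alzheimer libraries exceeded their matched mean. Sv2b rose by 0.12 ± 0.032 (adjusted p = 0.0171), and the call ended without replicate 21 (adjusted p = 0.0585). The synapsins Syn1 and Syn2, which hold vesicles in the reserve cluster, stood at 861 ± 40.0 against 819 ± 42.8 CPM and at 481 ± 19.5 against 453 ± 28.95 CPM. Syn1 rose by 0.069 ± 0.022 (adjusted p = 0.0441) and Syn2 by 0.090 ± 0.027 (adjusted p = 0.0312). Both calls were lost without single libraries. For Syn1 these were replicates 1, 3, 4, 5, 8, 9, 13, 14, 17, 18, 19, 21, 22, 23, 25, 26, 27 and 29 (adjusted p from 0.0556 to 0.121), and the call also ended with no cohort term (0.0585). For Syn2 they were replicates 3, 4, 5, 12, 14, 18, 19, 21, 22, 23 and 29 (0.0508 to 0.0820).

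The remaining vesicle members did not pass. Sv2a was at 526 ± 15.1 against 508 ± 15.7 CPM, 0.051 ± 0.018 (adjusted p = 0.0809), with 13 of 15 alzheimer libraries above their matched mean. Sv2c and Syn3 were low, at 5.57 ± 0.741 against 5.15 ± 0.826 CPM and 8.21 ± 1.45 against 8.14 ± 1.19 CPM, and their log2 fold changes of 0.13 ± 0.075 and 0.0077 ± 0.081 were imprecise. Syp, for the abundant vesicle protein synaptophysin, was at 0.027 ± 0.021, and Rab3a, the vesicle GTPase, at 0.0027 ± 0.019, with a 95% interval of −0.036 to 0.041.

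Among the SNARE and recycling genes 1 of 7 rose. Nsf, the ATPase that takes spent SNARE complexes apart, had lowest, median and highest libraries of 930, 976 and 1024 CPM in alzheimer and 878, 897 and 1051 CPM in wildtype. Of the 15 wildtype libraries 9 lay below the lowest alzheimer library, and male chow replicate 7 lay above them all. Nsf rose by 0.085 ± 0.021 (adjusted p = 0.00970). Its cofactors Napa and Napb, for alpha-SNAP and beta-SNAP, had opposite signs, at −0.030 ± 0.023 and 0.080 ± 0.038, and neither passed. The fusion SNAREs themselves were close to 0. Snap25 was at 2788 ± 153 against 2806 ± 116 CPM (−0.012 ± 0.024, 95% interval −0.060 to 0.036). Stx1a, the syntaxin of the plasma membrane, was at 0.016 ± 0.030, Vamp2, the vesicle SNARE, at 0.030 ± 0.018, and its paralog Vamp1 at −0.052 ± 0.023 (adjusted p = 0.158).

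**Figure D2:**
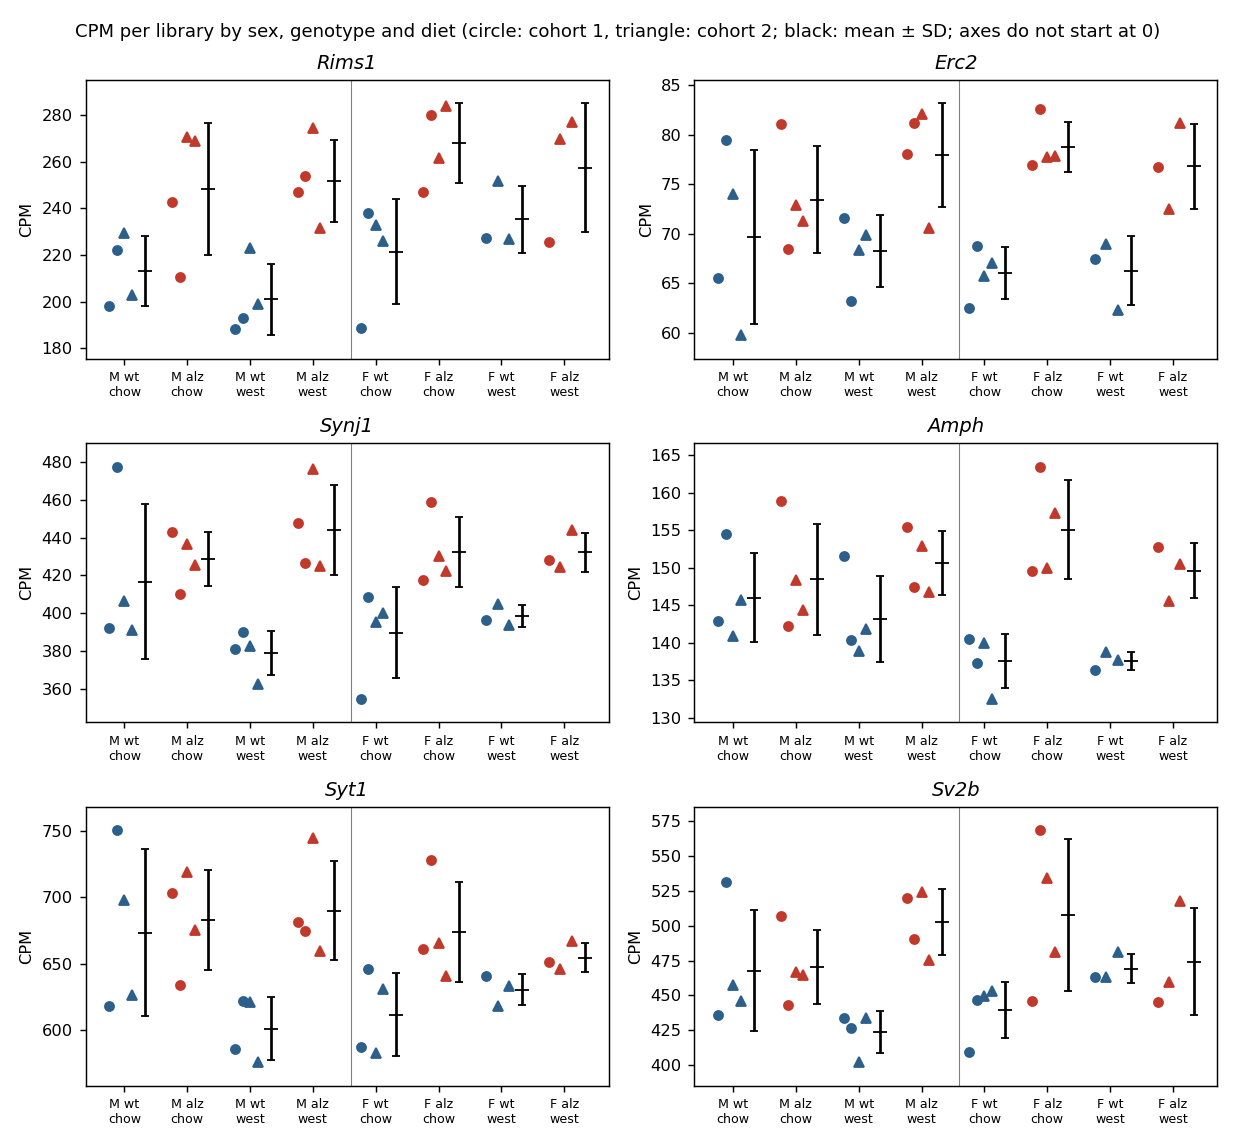
CPM in each library for Rims1, Erc2, Synj1, Amph, Syt1 and Sv2b in the 8 groups (M male, F female, wt wildtype in blue, alz alzheimer in red, west western), with circles for cohort 1, triangles for cohort 2 and black marks for the group mean ± SD. Male wildtype chow replicate 7 is the high circle in the first column, at 478 CPM for Synj1 and 751 CPM for Syt1, and the axes do not start at 0.

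Of the 11 calls, those of Rims1, Erc2, Synj1, Amph, Syt1 and Nsf held without any 1 library. The number of members called ran from 7 to 13 when a single library was left out, while the number over all genes ran from 817 to 1270. It was 7 without female alzheimer western replicate 18, without female alzheimer chow replicate 19 and without female wildtype western replicate 22. Male wildtype chow replicate 7 was the highest of all 30 libraries for Snap25, Nsf, Napb, Syt1, Syn2 and Synj1, and without it 13 members were called, with Pclo and Napb added.

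Both cohorts were also fitted alone. All 11 called members were higher in alzheimer in each cohort. Of the 33 members 27 had the same sign in both, 23 of them higher. The 11 were called on both cohorts together, so their sign within each cohort is not separate support. The share of all genes with the same sign was not computed. In cohort 2 alone (16 libraries) 9 members passed, against a background of 4.58% of genes, and 7 of these were among the 11. Syn1, Syn2, Syt7 and Doc2a did not pass there, while Pclo and Napb did. In cohort 1 alone (14 libraries) 0.567% of genes were called and 1 member passed, Cplx2 (0.31 ± 0.035, adjusted p = 7.91e-05), in a fit where replicate 12 was the only library of its group. None of the 11 passed in cohort 1 alone. Rims1 was at 0.20 ± 0.052 in cohort 1 and 0.26 ± 0.039 in cohort 2, and Erc2 at 0.18 ± 0.054 and 0.18 ± 0.045.

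**Figure D3:**
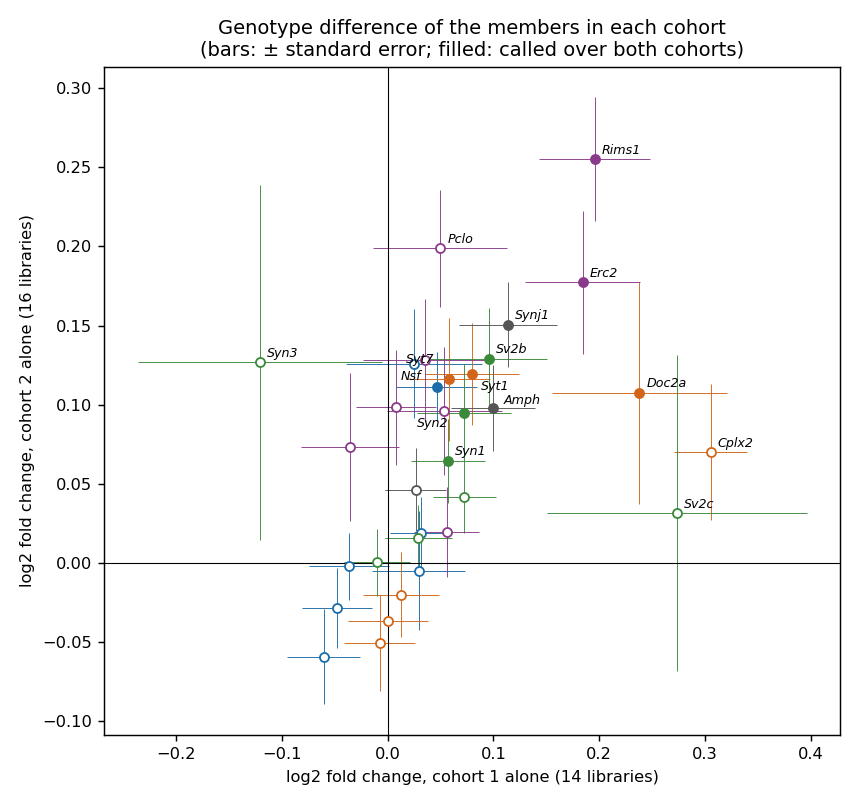
Log2 fold change of alzheimer over wildtype in cohort 1 (horizontal) and cohort 2 (vertical), each fitted alone, with bars of ± 1 standard error, coloured by step (blue SNARE, orange sensors and clamps, green vesicle, purple active zone, grey endocytosis). The 11 filled members, called over both cohorts together, lie in the upper right, where both values are positive. Cplx2 stands apart at 0.31 in cohort 1 and 0.070 in cohort 2.

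The genotype difference was next read within each diet and sex. On chow, where 0.901% of all genes were called, Rims1 was the 1 member to pass (0.25 ± 0.047, adjusted p = 0.00258). This count rested on single libraries: without male wildtype chow replicate 7 it was 5, with Erc2, Napb, Synj1 and Nsf added, without replicate 8 it was 3, and without replicate 25 it was 2. The Rims1 call on chow ended in cohort 1 alone (adjusted p = 0.600). On western diet, with a background of 3.17%, Rims1 (0.23 ± 0.051), Erc2 (0.20 ± 0.050) and Synj1 (0.17 ± 0.039) passed. Without replicate 7 (Syt1 and Nsf added) or replicate 2 (Syn2 and Amph added) 5 members passed. The Erc2 call on western diet ended without replicate 21 or 22 (adjusted p = 0.0689 and 0.0670) and in either cohort alone (0.524 and 0.177), and those of Rims1 and Synj1 ended in cohort 1 alone (0.565 and 0.657).

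On western diet the libraries of Nsf, Syt1 and Synj1 did not overlap between the genotypes (9.09% of the members, against 1.28% of all genes). Synj1 ran from 425 to 476 CPM in 7 alzheimer libraries and from 363 to 405 CPM in 7 wildtype libraries. Without replicate 2 there were 5 such members, against 1.65% of all genes. On chow 0 members were without overlap, against 0.351% of all genes. Each genotype held more libraries on chow, which makes a full gap harder to reach, so the counts on the diets are not alike. Without replicate 7, however, Synj1 did not overlap on chow (background 0.494%), and without replicate 8 Rims1 did not (0.47%).

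In males, with a background of 1.25%, Rims1 passed (0.27 ± 0.047, adjusted p = 0.000606). Without replicate 7 the count in males was 5, with Syt1, Erc2, Synj1 and Sv2b added, and without replicate 6, 8 or 9 it was 2, with Synj1 added. The Rims1 call in males ended in cohort 1 alone (adjusted p = 0.333). In females, with a background of 2.57%, Rims1 (0.20 ± 0.051), Erc2 (0.23 ± 0.050) and Amph (0.15 ± 0.030) passed, and Synj1 and Nsf also passed without replicate 7 or without replicate 13. In females the libraries of Amph, Erc2 and Synj1 did not overlap between the genotypes, again 9.09% of the members, against 1.39% of all genes. In males, with more libraries of each genotype than in females, 0 members were without overlap, against 0.335% of all genes. This too turned on single libraries: Syn1 and Synj1 did not overlap in males without replicate 7 (background 0.558%), and Rims1 did not without replicate 8 (0.438%). In females Amph was between 146 and 163 CPM in 7 alzheimer libraries and between 132 and 141 CPM in 7 wildtype ones, and Erc2 between 72.5 and 82.5 CPM and between 62.3 and 69.0 CPM. The test of the difference between the sexes gave 0.097 ± 0.041 for Amph (unadjusted p = 0.0252, adjusted p = 0.999) and 0.097 ± 0.068 for Erc2 (adjusted p = 0.999), so a difference between the sexes was not shown. The female call of Rims1 ended without replicate 9, 14, 18, 21 or 22 (adjusted p from 0.0637 to 0.0961), with no cohort term (0.0568), with library size as covariate (0.0509) and in either cohort alone (0.650 and 0.0637). The female calls of Erc2 (0.395 and 0.103) and Amph (0.407 and 0.103) also ended in either cohort alone, where the members called in females were Cplx2 in cohort 1 and Nsf in cohort 2.

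Genotype by diet, genotype by sex and the 3-way term called 0 genes of any kind by edgeR. At an unadjusted p under 0.05 these had 0, 2 and 3 members, and DESeq2 also called 0 members for each. The 3-way value with the smallest p was that of Sv2b, −0.43 ± 0.13 (unadjusted p = 0.00218, adjusted p = 0.932). Those of Sv2c (0.56 ± 0.30) and Cplx2 (0.43 ± 0.21) were as large or larger and less precise (adjusted p = 0.932 for each).

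Diet alone called 0 members by edgeR, against 0.00797% of all genes, and DESeq2 also called 0. At an unadjusted p under 0.05 there was 1 member, Unc13b (−0.070 ± 0.033, adjusted p = 0.880). The median over the members was −0.0057, and the largest value was that of Doc2a at −0.099 ± 0.053. The interval for Snap25 was −0.035 to 0.062 and for Rims1 −0.089 to 0.053. Sex called 0 members, against 0.837% of all genes, and DESeq2 also called 0. At an unadjusted p under 0.05 there were 4: Bsn at 606 ± 57.0 CPM in 14 female and 557 ± 63.1 CPM in 16 male libraries (0.13 ± 0.040, adjusted p = 0.112), Syn1 (0.067 ± 0.022, adjusted p = 0.131), Rims1 (0.097 ± 0.035, adjusted p = 0.166) and Unc13b (−0.091 ± 0.033, adjusted p = 0.178).

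The effect of diet differed between the sexes for 1 member, Unc13b, against a background of 1.23% of all genes. Unc13b codes for Munc13-2, a priming factor found at a subset of hippocampal synapses. In males the lowest, median and highest libraries were 33.4, 36.3 and 43.4 CPM on chow and 27.6, 32.6 and 34.6 CPM on western diet. In females they were 30.1, 31.6 and 33.3 CPM on chow and 31.0, 32.8 and 35.6 CPM on western diet. The highest libraries were male ones on chow, and within each sex the diets overlapped. Male alzheimer chow replicates 3 and 8, at 33.4 and 33.9 CPM, lay below female alzheimer western replicate 18 at 35.6 CPM. The difference between the diet effects was 0.26 ± 0.067 (adjusted p = 0.0409). Read within each sex, diet called 0 members, against 0.128% of all genes in males and 0.183% in females. The western minus chow value of Unc13b was −0.20 ± 0.045 in males (adjusted p = 0.0545) and 0.061 ± 0.049 in females (adjusted p = 0.731). The male value passed without replicate 3, 8, 18 or 28, with no filter and with DESeq2.

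The Unc13b call did not hold in several fits. It ended in either cohort alone (0.15 ± 0.092, adjusted p = 0.626, and 0.37 ± 0.094, adjusted p = 0.147), with 2 surrogate variables added (0.0572) and with library size as a covariate (0.0655). It also ended when the 3 libraries highest in choroid plexus markers were removed (0.0895). The same held for the removal of replicate 1, 4, 5, 7, 9, 10, 11, 12, 15, 16, 17, 18, 19, 20, 23, 25, 27 or 30, each on its own (0.0533 to 0.0994). The direction was the same in every one of these fits. Bsn (0.24 ± 0.079, adjusted p = 0.131) and Pclo (0.23 ± 0.086, adjusted p = 0.207) had values of like size and did not pass.

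**Figure D4:**
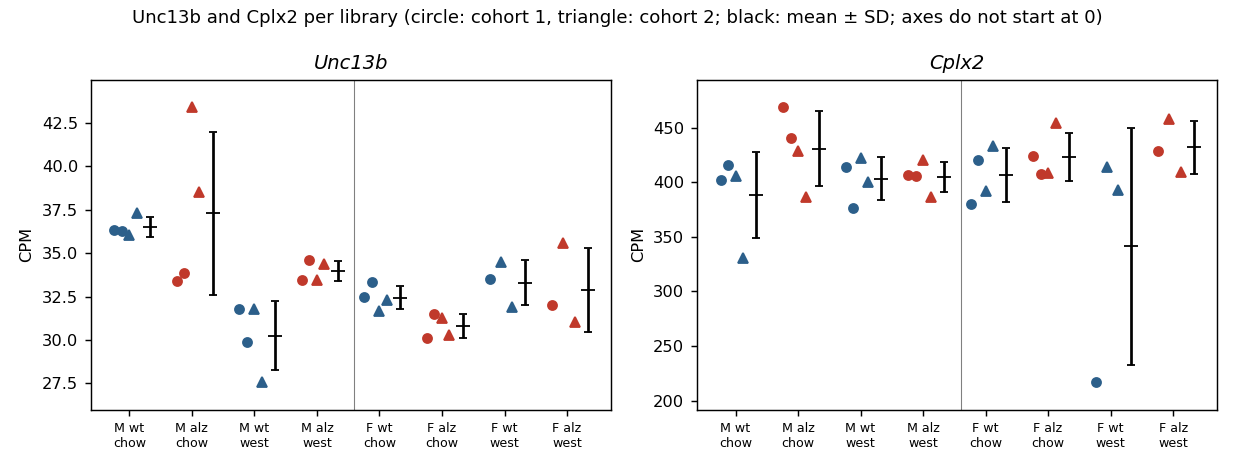
CPM in each library for Unc13b and Cplx2 in the 8 groups, with circles for cohort 1, triangles for cohort 2 and black marks for the group mean ± SD. The highest libraries of Unc13b are in the male chow groups, up to 43.4 CPM. The lone low circle of Cplx2 at 217 CPM is female wildtype western replicate 12, and the axes do not start at 0.

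The members also varied together between libraries of the same group. After group and cohort means were removed, the median correlation over the 528 pairs of members across the 30 libraries was 0.27, with 414 pairs positive and 107 above 0.5. These values share library, depth and tissue makeup and are given without a test. Pairs of other genes were not computed, so the values have no background. The highest were between Nsf and its cofactor Napb (0.87), Syt1 and Synj1 (0.84), and Napb and Erc2 (0.80). Male wildtype chow replicate 7 was the highest library for Nsf, Napb, Syt1 and Synj1, and the correlations were not recomputed without it. The lowest correlation was between Syt5 and Unc13b (−0.55).

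A further 66 genes of the same cycle were listed, with earlier results of these data known, and 65 were tested. Of these 17 (26.2%) were higher and 1 lower in alzheimer, with a median of 0.040. Over all genes tested 4.14% were higher and 3.89% lower. Of 14 other SNARE and fusion genes 6 rose, among them the tomosyn gene Stxbp5 (0.14 ± 0.026, adjusted p = 0.000573), Napg, for gamma-SNAP (0.087 ± 0.021, adjusted p = 0.00796), and Cadps, for the vesicle priming factor CAPS (0.10 ± 0.026, adjusted p = 0.0105). Of 15 other vesicle genes 3 rose: Syngr1, for synaptogyrin (0.14 ± 0.028, adjusted p = 0.00113), Scamp5 (0.092 ± 0.024) and the chaperone gene Dnajc5 (0.084 ± 0.027). Of 18 other active zone genes 5 rose, among them the liprin genes Ppfia4 (0.14 ± 0.024, adjusted p = 0.000298) and Ppfia2 (0.082 ± 0.024), the adaptor gene Apba1 (0.10 ± 0.029) and the neurexin gene Nrxn3 (0.092 ± 0.027). In the same list Lin7b, a scaffold partner of Cask, fell by 0.19 ± 0.025 on the log2 scale (adjusted p = 3.35e-06). Of 18 other endocytosis genes 3 rose: the auxilin gene Dnajc6 (0.10 ± 0.024), the endophilin gene Sh3gl2 (0.095 ± 0.026) and the clathrin heavy chain gene Cltc (0.065 ± 0.019).

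Some markers of other cells were lower in the same comparison, where 3.89% of all tested genes were lower and 4.14% higher. In alzheimer 4 of 8 microglial markers were lower, 3 of 10 astrocyte markers (and 1 higher, Gfap), 2 of 6 endothelial markers, 2 of 8 pericyte and smooth muscle markers and 1 of 10 oligodendrocyte markers. Their median log2 fold changes were −0.073, −0.062, −0.092, −0.12 and −0.056. Of the markers of oligodendrocyte precursors 0 of 6 passed, of ependyma 0 of 7 and of choroid plexus 0 of 7. Their medians were −0.050, −0.16 and −0.094, and 3 of the choroid plexus markers were positive. Summed oligodendrocyte markers, the largest of these in CPM, ran from 8280 to 13538 in alzheimer (median 11337) and from 8344 to 14918 in wildtype (median 12787). Summed astrocyte markers ran from 5155 to 6034 CPM in alzheimer and from 4970 to 6004 CPM in wildtype. In the same order, summed microglial markers ran from 355 to 432 and from 378 to 484 CPM, endothelial ones from 221 to 290 and from 223 to 328 CPM, and pericyte and smooth muscle ones from 123 to 170 and from 139 to 184 CPM. All these ranges overlapped. Pan-neuronal markers had 1 of 12 lower and a median of −0.011, and glutamatergic markers 2 higher and 1 lower of 7 with a median of 0.034. GABAergic markers had 1 of 9 lower with a median of 0.022, and CA1 markers 2 of 5 lower with a median of −0.16. Of the 2 tested dentate gyrus markers C1ql2 was lower (−0.27 ± 0.043, adjusted p = 5.75e-05) and Prox1 did not pass (0.15 ± 0.060, adjusted p = 0.125). Summed dentate gyrus markers ran from 239 to 313 CPM in alzheimer (median 257) and from 249 to 353 CPM in wildtype (median 312). Of CA3 markers 0 of 3 passed, and of neocortex markers 1 of 7 was higher, with a median of −0.042. Of the field markers, Iyd, Tdo2 and Lct were at 0 in 12, 18 and 15 of the 30 libraries and were not tested. The part of these shifts in the members' values was not tested.

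**Figure D5:**
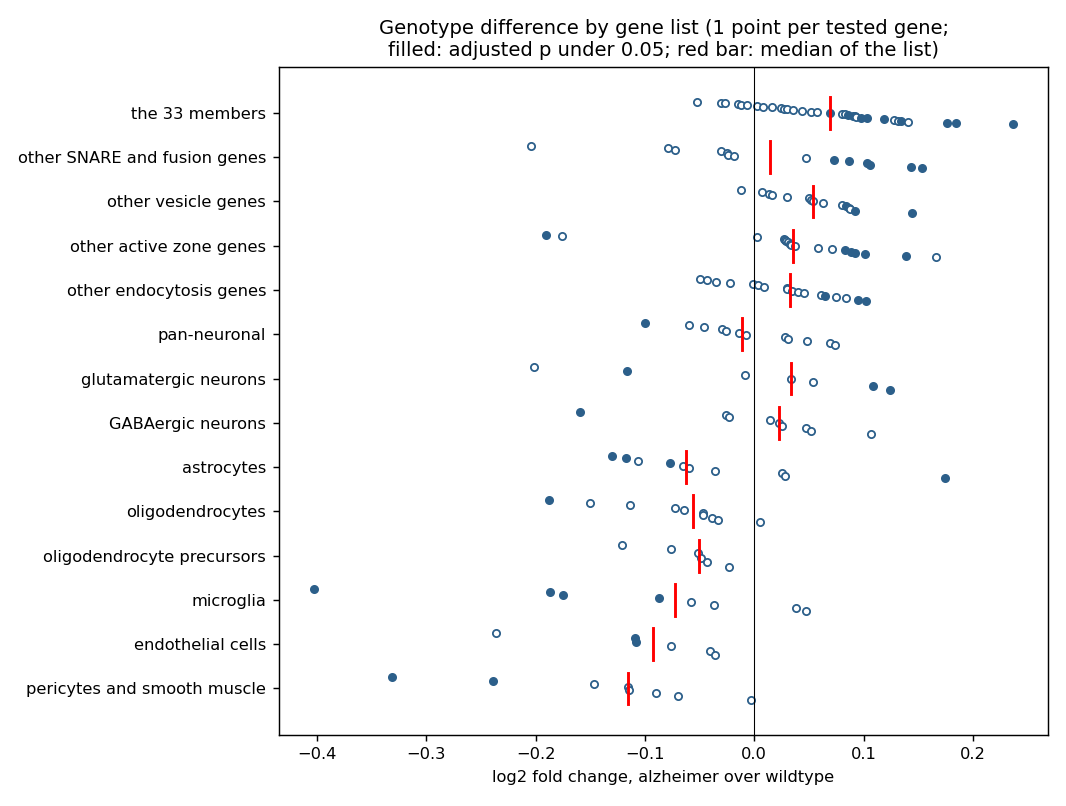
Log2 fold change of alzheimer over wildtype for every tested gene of the members, the other vesicle cycle genes and the cell type marker lists, with filled points for adjusted p under 0.05 and red bars for list medians. The members' median is 0.069, the pan-neuronal one −0.011, and the medians of the 6 lists of glial and vascular markers lie below 0.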

How the data were processed

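The authors deposited raw counts per gene for the 30 libraries in 1 table, and the unit was checked from the values, which were whole numbers. The submitters' processing notes name cutadapt, a read trimmer, and STAR 2.7.0a, an aligner. Strand setting, counting tool, annotation and build were not given in the sources used here. Reads from antisense genes therefore cannot be told apart. No column was left unmapped and no row lacked a gene name.

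Counts were analysed in R 4.3.3 with edgeR 4.0.16: filterByExpr on the 8 groups (minimum count 10, minimum total 15), TMM factors, 1 coefficient per group plus a cohort term, and two-sided quasi-likelihood F tests. P-values were adjusted over all 12547 genes by Benjamini-Hochberg, and a call is an adjusted p under 0.05. Genotype, diet and sex weighted the other factors equally. Intervals are at 95%. The procedure was tested on simulated counts that held no cohort effect and no variation shared between genes, so that test does not cover these. Alternatives were median-of-ratios size factors, a filter at 1 CPM in 8 libraries, no filter beyond 1 count, DESeq2 1.42.0, limma-voom (limma 3.58.1) with quality weights, no cohort term, 2 surrogate variables (sva 3.50.0), log2 library size as covariate, each cohort alone, single strata, leaving out the 3 libraries highest in choroid plexus markers, and leaving out each library in turn. Readings of single members within strata, of Unc13b and of Cplx2, and counts of members without overlap with single libraries left out, were chosen after seeing the data.

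The members and gene lists were chosen with earlier results of these data known. All 33 members were named. From the other vesicle cycle genes, called ones were named, up to 4 per list and direction by smallest p, and marker lists were read as counts, medians and sums. 1 gene that this rule would name is not reported here. Start regions came from RefSeq, build GRCr8. No protein sequences were used here.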

Additional observations from a re-analysis of the deposited data

Results flagged for a closer look

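In groups of 4 libraries, a library was set apart where its gap to the nearest other, divided by the range of the group, passed the 95% limit of Dixon's test. Chance alone does this in about 1 of 20 groups, and 10 of the 198 member and group combinations did so here. Snap25 in male wildtype chow replicate 7 was high at 3123 CPM, against 2722 to 2763 CPM in the other libraries of the group. Nsf was high in female wildtype chow replicate 13 at 944 CPM, Syt5 in male alzheimer western replicate 23 at 237 CPM, Syn2 in male alzheimer chow replicate 3 at 514 CPM, and Erc2 in female alzheimer chow replicate 14 at 82.5 CPM. Stx1a was low in female alzheimer chow replicate 10 at 143 CPM, Vamp2 in male alzheimer chow replicate 8 at 1277 CPM, and Napa in female alzheimer chow replicate 14 at 450 CPM. Cplx2 was low in male wildtype chow replicate 29 at 330 CPM, and Sv2b in female wildtype chow replicate 9 at 410 CPM. The larger Cplx2 gap, in replicate 12, lay in a group of 3 and was not tested this way. The diet effect on Unc13b differed between the sexes by 0.262 on the log2 scale in the test of that difference (edgeR, adjusted p = 0.0409, 30 libraries). This call was lost in 18 of 30 fits without a single library and in cohort 2 alone. The background for it was 1.23% of all genes.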

How the results depend on the processing

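Each member called for genotype, and Unc13b for diet by sex, kept its direction under every alternative run, all of them on these same libraries. No paired analysis was possible because the replicate numbers in the labels run from 1 to 30 and no 2 groups share one. The number of members called for genotype was 9 to 13 under the other alternatives and 1 in cohort 1 alone. Member calls in cohort 1 alone were all of Cplx2, which was not called over all libraries. They came for genotype, diet, sex, genotype by diet, genotype by sex and the 3-way term. They also came for genotype on western diet and in females, and for diet in wildtype and in females. In that fit replicate 12, the lowest library for Cplx2, was the only one of its group. Sex gave 0 over all libraries, 1 with no filter (Bsn) and 1 with 2 surrogate variables (Syn1). Diet by sex gave 1 in all, 2 with no filter, and 0 with 2 surrogate variables, with library size as covariate, in cohort 1 alone, in cohort 2 alone and without the 3 choroid-rich libraries. Genotype on chow gave 1 in all, 2 with no filter, with DESeq2 and with 2 surrogate variables, and 0 in cohort 1 alone. On western diet it gave 3 in all, 6 with DESeq2, 5 with limma-voom, 1 in cohort 1 alone and 7 with the stratum fitted alone. In males it gave 1 in all, 2 with no filter, DESeq2, limma-voom and 2 surrogate variables, 0 in cohort 1 alone and 3 in cohort 2 alone. In females it gave 3 in all, 4 with no filter, 6 with DESeq2 and limma-voom, and 7 with the stratum fitted alone. It gave 2 in females with no cohort term and with library size as covariate, and 1 in cohort 2 alone. Diet in males gave 1 with no filter and with DESeq2. The causes were not tested. The share of all genes called for genotype also moved, apart from cohort 1 alone. It ran from 4.58% in cohort 2 alone to 9.3% with DESeq2, against 8.03% in the main fit. Within a diet or sex that share is given only for the main fit, so those counts have no background under the alternatives.

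Leaving out single libraries gave 7 to 13 members for genotype, 0 to 1 for diet by sex, 1 to 5 on chow, 2 to 5 on western diet, 1 to 5 in males, 2 to 5 in females, 0 to 1 for diet in males, and 0 to 0 for the other comparisons. The counts over all tested genes moved in these fits as well. They were 817 to 1270 for genotype, 79 to 249 for diet by sex, 86 to 169 on chow and 229 to 471 on western diet. In males they were 97 to 311, in females 164 to 356, and for diet in males 9 to 53.

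Groups of 3 or 4 libraries limit the tests within strata, and cohort 1 holds 1 library of some groups. Syn3, Sv2c, Cplx2 and Doc2a had the largest standard errors for genotype, 0.052 to 0.081.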
